A study of Mus musculus with 6 samples.

Results

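The genes described here turn plasminogen into plasmin at the cell surface or hold that reaction in check. They were taken by gene symbol from the array annotation, as every probe set listed for Plat, Plau, Plaur, Serpine2, Anxa2 or S100a10. The annotation listed 11 probe sets for 5 of these 6 genes, out of 18193 genes with a probe set of their own. Serpine2, a serine protease inhibitor that acts on thrombin and on the plasminogen activators, had no probe set listed under its symbol and was not analysed here. RNA came from 6 primary cultures of mouse aortic endothelial cells (strain C57, no treatment), 3 of them from non-transgenic mice. The other 3 came from mice carrying human PPARG with the V290M change, a dominant negative form, under the endothelial CDH5 promoter. Each culture was grown from 2 mice and kept separate, so that n = 3 in each group and a replicate is a pool of 2 animals. The study asked how the interfering receptor alters gene expression in these cells. Of 5 cultures grown per group, 3 were put on arrays.

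Plasminogen activators are serine proteases that cut the inactive precursor plasminogen to plasmin, which dissolves fibrin and digests matrix. The tissue-type activator, encoded by Plat, is released by endothelium and works best on fibrin, whereas the urokinase-type activator, encoded by Plau, is held on the cell surface by its receptor, encoded by Plaur. Annexin A2 (Anxa2) and its partner S100a10 form a complex on the endothelial surface that docks plasminogen and the tissue-type activator. Serpins and Kunitz-type inhibitors restrain the activators and plasmin.

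The 3 promoters below include those of Plaur and Anxa2, the 2 of the 5 genes for which transgenic replicates 1 and 2 both lay above every non-transgenic culture. That of Serpinb2, an inhibitor of the urokinase-type activator, is shown because it had the largest positive difference of all genes tested. Serpinb2 reached the test only through its transgenic levels, so this rank is a description. Each is the 250 bases before the annotated start, 5′ to 3′ on the gene's strand (RefSeq, build GRCm38.p6), with matches to 5 motifs on either strand in capitals.
Plaur, chr7:24462233-24462482, plus strand: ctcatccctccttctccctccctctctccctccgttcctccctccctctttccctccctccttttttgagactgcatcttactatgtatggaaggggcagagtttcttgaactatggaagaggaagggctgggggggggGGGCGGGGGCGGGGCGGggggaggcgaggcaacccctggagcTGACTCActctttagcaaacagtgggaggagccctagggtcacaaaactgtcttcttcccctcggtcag
Anxa2, chr9:69453433-69453682, plus strand: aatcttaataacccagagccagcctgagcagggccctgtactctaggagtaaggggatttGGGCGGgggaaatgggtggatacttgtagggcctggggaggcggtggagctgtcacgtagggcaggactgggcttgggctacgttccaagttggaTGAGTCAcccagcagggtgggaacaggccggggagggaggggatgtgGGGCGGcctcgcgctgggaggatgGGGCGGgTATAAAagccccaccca
Serpinb2, chr1:107511173-107511422, plus strand, the upstream of 2 starts in the table: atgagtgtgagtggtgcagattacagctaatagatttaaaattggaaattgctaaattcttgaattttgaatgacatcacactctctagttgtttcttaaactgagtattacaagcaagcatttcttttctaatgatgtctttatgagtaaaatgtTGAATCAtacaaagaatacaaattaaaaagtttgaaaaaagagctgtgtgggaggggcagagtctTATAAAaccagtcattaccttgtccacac

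The motifs searched were the AP-1 site TGANTCA, the GC box GGGCGG, the cAMP response element TGACGTCA, the TATA box TATAAA and the direct repeat to which PPAR and RXR bind, AGGTCA written 2 times with 1 base of any kind between. The AP-1 letters occurred once in each of the 3 sequences, and in 6.73% of 32536 promoter windows of the same length. The windows of Serpine2 and of 2 of the 3 starts of Tfpi2, also searched, did not hold these letters. That of the remaining Tfpi2 start did. As the 3 printed sequences were picked by the levels of their genes, their matches are a description and no test of enrichment. Plaur carried 3 GC boxes, adjoining or sharing a base, and no TATA box, and Anxa2 carried 3 GC boxes and a TATA box. Serpinb2 carried a TATA box and no GC box, at a GC content of 32.4% against 59.6% for Plaur. GC boxes occurred in 32.97% and TATA boxes in 12.31% of all windows. The direct repeat was in none of the 3 windows and in 0.03% of all windows. A match is a string of letters and not a measured binding site.

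Signals are given as log2(signal + 16), a scale that understates the change of dim probe sets, and differences are transgenic minus non-transgenic on that scale. A gene was read by its brightest probe set and tested where its mean over the arrays was at or above 7.717, the median for probe sets as a whole. All 5 genes passed this filter, and 11208 genes were tested. The transgenic cultures were not alike. Over the genes tested, transgenic replicate 3 had a mean rank correlation of 0.972 with the non-transgenic arrays and of 0.907 with the other transgenic arrays. Differences are therefore also given without it. As this culture was left out for its likeness to the non-transgenic arrays, its omission tends to enlarge differences. Calls made without it are a description and no separate support. The labelled cell type was checked against 20 endothelial markers, of which 8 were above the filter, among them Flt1, Eng and Cd34, while Cdh5 (at most 7.19), Pecam1 (at most 6.34) and Nos3 (at most 7.63) were below it on every array. By their means all 16 fibroblast markers were above it, and their summed signal was 244430.5 to 262934 in the non-transgenic and 199570 to 234455.4 in the transgenic cultures (exact permutation p = 0.1, two-sided, as low as 3 against 3 can go). The summed signal of 10 adipocyte markers did not overlap either, at 67787.5 to 108862.3 against 29331.2 to 56051.6 (two-sided exact permutation p = 0.1), and the part of these cell types in the differences below was not tested. In such bulk cultures, fewer cells of a type and less RNA per cell cannot be told apart.

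Plaur, the receptor that holds the urokinase-type activator at the cell surface, had the largest difference of the 5 genes. Its single probe set (1452521_a_at) read 8.10, 7.37 and 8.48 without the transgene (replicates 1 to 3, the order used throughout), and 10.16, 11.07 and 7.91 with it. As signals these were 257.5, 149.1 and 341.9 against 1129, 2139 and 224. Transgenic replicates 1 and 2 lay above every non-transgenic culture, and replicate 3 lay inside the non-transgenic range, so that the groups overlapped. The difference was 1.73 ± 0.75 (SE, n = 3 per group), a fold of 3.32, and did not pass the threshold (limma adjusted p = 0.435). Its 95% interval ran from -0.01 to 3.48. Without transgenic replicate 3, left out for its likeness to the non-transgenic arrays, the difference was 2.64 ± 0.41, a fold of 6.21, and passed (limma adjusted p = 0.00867). Without transgenic replicate 2 it was 1.05, and without any one of the other 4 cultures it lay between 1.42 and 1.98.

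With all 6 arrays in the limma fit, 0 of 11208 genes (0%) passed the threshold of 0.05 after Benjamini-Hochberg adjustment, among them 0 of these 5, while 1288 genes (11.5%) had an unadjusted p under 0.05. Leaving out transgenic replicate 3, limma called 14.7% of the genes tested, 6.88% higher and 7.83% lower, and of these 5 it called 1, Plaur. The groups did not overlap in 16.1% of all genes tested, 9.39% higher and 6.72% lower, and in 0 of these 5. Transgenic replicates 1 and 2 both lay above every non-transgenic culture in 22.8% of all genes tested, so that the position of Plaur and Anxa2 was a common one. By the size of the difference Plaur ranked 86 among all genes tested, counted from the highest, and 73 without transgenic replicate 3.

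**Figure D1:**
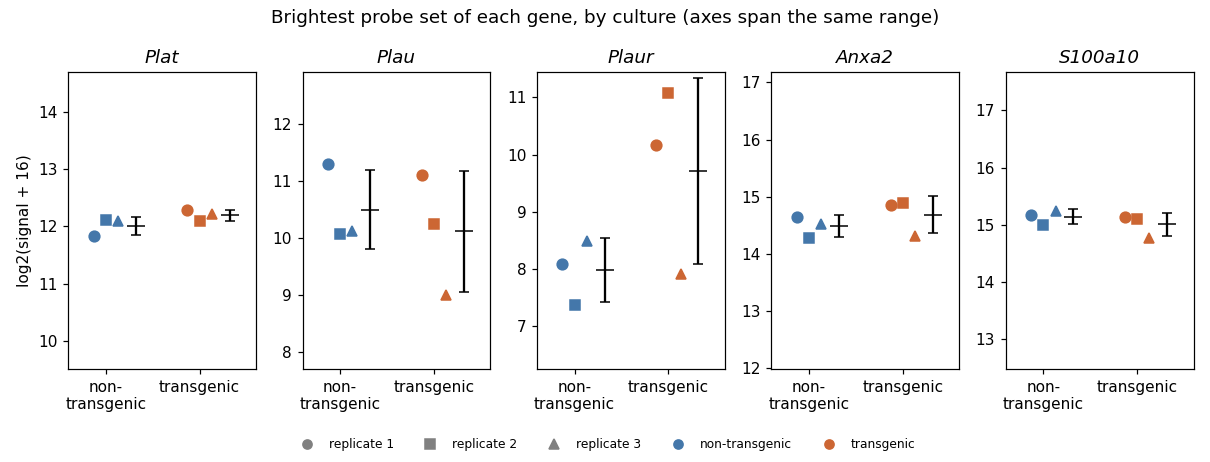
Level of the brightest probe set of each of the 5 genes in each culture, as log2(signal + 16) (vertical axes, all spanning the same range), for 3 non-transgenic and 3 transgenic cultures, with the mean and SD of each group in black. Plaur stands out by transgenic replicates 1 and 2 at 10.16 and 11.07, while Plat, Anxa2 and S100a10 vary little and Plau varies within both groups.

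Other values moved with Plaur across the cultures. The summed signal of 21 leukocyte and macrophage markers came to 8303, 5535 and 7059 in non-transgenic replicates 1 to 3, against 15086, 34967 and 8002 in their transgenic counterparts (exact permutation p = 0.2, two-sided). It was thus highest in the 2 cultures with the most Plaur, a gene that macrophages also express. By array, 7, 6 and 7 of these 21 markers were above the filter on the non-transgenic side and 7, 13 and 6 on the transgenic side. The leukocyte membrane protein gene Cd53 read 10.41, 8.60 and 7.74 against 12.65, 13.29 and 8.43, high where Plaur was high. The actin-binding leukocyte gene Coro1a went the other way, at 9.45, 9.65 and 9.64 against 8.64, 8.63 and 9.73, and Cd14 was lowest in transgenic replicate 2, at 8.90. The macrophage growth factor receptor Csf1r read 8.94, 9.06 and 8.61 against 11.03, 10.49 and 10.59, so that transgenic replicate 3 was high as well. In transgenic replicate 1 the higher sum lay mainly in Cd53 and Csf1r. Lyz1 and Lyz2 read 11.47 and 10.37 there, close to 11.30 and 10.21 in non-transgenic replicate 1. Tyrobp read 5.33 there, against at least 6.78 without the transgene. Neither the leukocyte phosphatase Ptprc (7.66, 5.96 and 7.16 against 5.89, 5.83 and 5.88) nor the macrophage receptor Adgre1 (at most 6.81) reached the filter on any array. The part of such cells in the Plaur difference was not tested.

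A measure of RNA quality differed too. The Gapdh controls read at the 3′ end over those at the 5′ end gave ratios of 1.71, 1.55 and 1.51 against 1.35, 1.20 and 1.44, with no overlap between groups (two-sided exact permutation p = 0.1, as low as this design goes). Transgenic replicate 2 had both the lowest ratio and the most Plaur. Fitted with this ratio the Plaur difference was -0.23 ± 0.97, and fitted instead with that of beta-actin, at 2.17, 2.00 and 1.83 against 1.74, 1.40 and 2.21, it was 0.89 ± 0.42 (limma adjusted p = 0.964 and 0.486). As the Gapdh ratio separated the groups, fits that hold it, here and below, cannot tell the ratio and the transgene apart.

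**Figure D2:**
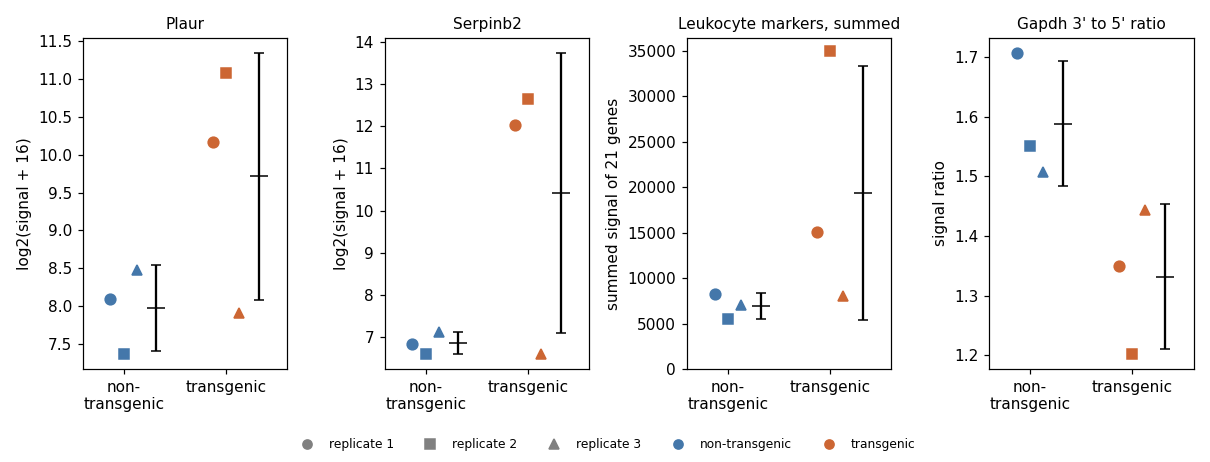
Plaur and Serpinb2 as log2(signal + 16), the summed signal of 21 leukocyte and macrophage markers, and the Gapdh 3′ to 5′ signal ratio in each culture, with the mean and SD of each group in black. Transgenic replicates 1 and 2 stand above the other cultures in the first 3 panels, and the same 2 cultures have the lowest ratios, 1.35 and 1.20, in the fourth.

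The activators themselves showed no such step. Plat, the tissue-type activator, read 11.83, 12.10 and 12.09 without the transgene and 12.28, 12.09 and 12.22 with it on its brighter probe set (1415806_at). The groups overlapped, because transgenic replicate 2 fell between non-transgenic levels. The difference was 0.19 ± 0.16 (SE, n = 3 per group; limma adjusted p = 0.634), with a 95% interval from -0.18 to 0.56. Plat was also the steadiest of the 5 genes: its SD within groups was 0.13, and 10.3% of the genes tested had a smaller one. The second Plat probe set (1458553_at) lay under the filter, at 7.36, 7.92 and 7.48 against 7.18, 7.38 and 7.51, with a difference of -0.23. The brighter and the dimmer probe set of this gene thus differed in sign.

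Plau, the urokinase-type activator, read 11.29, 10.08 and 10.11 without the transgene and 11.10, 10.25 and 9.0025 with it (1422139_at). Replicate 1 was the highest of each group and transgenic replicate 3 the lowest of all. The difference of -0.38 ± 0.56 was smaller than its error (limma adjusted p = 0.789), with a 95% interval from -1.67 to 0.92. Its direction turned to 0.79 with estimated array weights, where it passed (limma adjusted p = 0.0326), to 0.18 without transgenic replicate 3 and to 0.02 without non-transgenic replicate 1. The weighted fit rested mainly on transgenic replicate 1 and non-transgenic replicate 2. The SD within groups was 0.89, and 95.2% of the genes tested varied less. The second probe set (1422138_at), under the filter, had the same highest and lowest cultures, at 8.37, 7.42 and 6.89 against 7.997, 7.40 and 6.57. Transgenic replicates 1 and 2, where Plaur was high, therefore had Plau levels inside the non-transgenic range on both probe sets. Transgenic replicate 3 was the culture below that range, at 1.49 under the non-transgenic mean on the brighter probe set, with Plaur at its non-transgenic level.

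Anxa2, the annexin that docks plasminogen together with S100a10, is read by 3 probe sets. The brightest (1419091_a_at) read 14.65, 14.28 and 14.53 against 14.86, 14.89 and 14.31. Replicates 1 and 2 of the transgenic group lay above every non-transgenic culture and replicate 3 among them. The difference was 0.20 ± 0.18 (limma adjusted p = 0.641). Leaving out transgenic replicate 3 gave 0.39 ± 0.12, a fold of 1.31, which did not pass (limma adjusted p = 0.0690), and adding the Gapdh ratio to the fit gave -0.03. The second probe set (1437692_x_at), of the type that can share probes with unrelated transcripts, was at 7.87, 8.26 and 7.97 against 8.99, 7.77 and 8.44. It put transgenic replicate 2 lowest where the brightest probe set put it highest. The third (1437691_at) stayed under the filter on all 6 arrays, at 5.35 or less.

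S100a10, the small calcium-binding protein family member that pairs with annexin A2, gave different readings on its 3 probe sets. The brightest (1456642_x_at), also of the type that can share probes with unrelated transcripts, read 15.18, 14.997 and 15.25 against 15.14, 15.10 and 14.78. Transgenic replicate 3 was the lowest and the other 5 cultures were mixed, with a difference of -0.13 ± 0.12 (limma adjusted p = 0.659) and a 95% interval from -0.42 to 0.15. The second (1416762_at) was at 14.71, 14.68 and 14.93 against 14.78, 14.83 and 14.43, again highest in non-transgenic replicate 3 and lowest in transgenic replicate 3.

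The third S100a10 probe set (1439348_at) was at 10.66, 10.89 and 11.21 against 9.70, 10.07 and 10.16. Here the transgenic levels were lower throughout, with no overlap and with replicate 3 the highest of its group. The difference was -0.94 ± 0.24, 1.93-fold lower, and did not pass when each of 19750 probe sets was tested on its own (limma adjusted p = 0.292). With transgenic replicate 3 left out it was -1.04 ± 0.25 and passed (limma adjusted p = 0.0267), where 16.2% of probe sets did. Leaving out any one of the other 5 cultures gave -1.07 to -0.80. Within each array, the third probe set minus the brightest was -4.52, -4.11 and -4.04 against -5.45, -5.04 and -4.62, a difference of -0.81 with no overlap (two-sided exact permutation p = 0.1, as low as this design goes). This contrast was made after the values were seen, and it largely repeats the difference of -0.94. The stretch of the gene read by this probe set was not analysed here. Of the 8 probe sets of the 5 genes above the filter, it was the 1 whose groups did not overlap, against 18.6% of all probe sets tested, 9.79% of them lower.

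**Figure D3:**
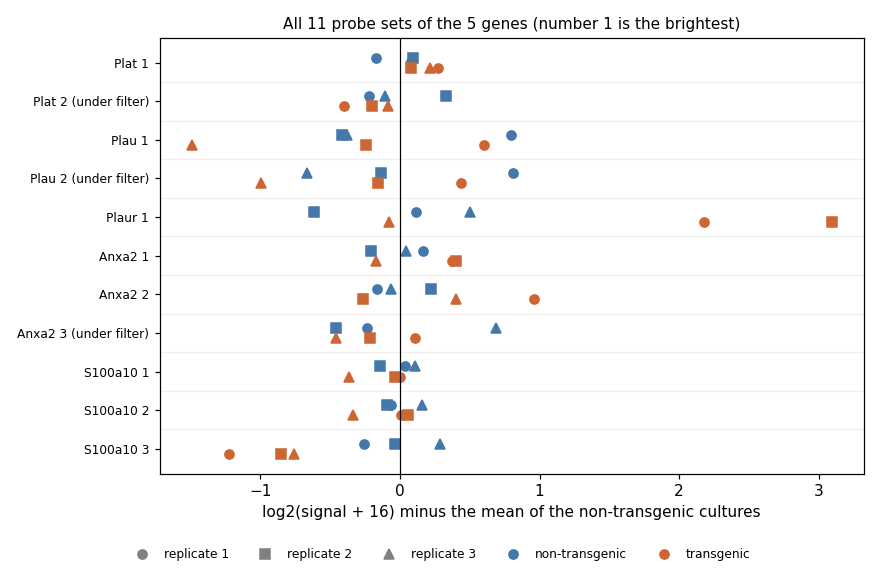
Each of the 11 probe sets of the 5 genes by culture, as log2(signal + 16) minus the mean of the 3 non-transgenic cultures (horizontal axis), numbered from the brightest within a gene. Plaur in transgenic replicates 1 and 2 reaches furthest to the right, and the third S100a10 probe set has all 3 transgenic cultures to the left of the non-transgenic ones.

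The rest of the plasminogen system was read through 5 lists by role, of which 58 genes were on the array and 36 were tested. limma called 0 of them and had 5 higher and 2 lower at an unadjusted p under 0.05, where 6.47% of all genes were higher and 5.02% lower. Their median difference was 0.03, against -0.02 over all genes tested. Leaving out transgenic replicate 3, 6 were called higher and 3 lower, or 25.0% of the 36 against 14.7% of all genes. Of the 6, Serpinb2 and Lrp8 had reached the test only through their transgenic levels, a further reason that their calls carry no support. Serpinb2 was also among the 5 higher at an unadjusted p under 0.05, so that count too is a description.

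Among 10 tested inhibitors, 2 lay higher and 1 lower at an unadjusted p under 0.05, and the median difference was 0.20. Serpinb2, 1 of the 2 higher, was tested only because of its transgenic levels, so this count is a description. Serpinb2 (1419082_at), also known as plasminogen activator inhibitor type 2, blocks the urokinase-type activator. It read 6.84, 6.59 and 7.12 against 12.02, 12.64 and 6.60. Only transgenic replicates 1 and 2 exceeded the filter, which the gene passed through them alone, and replicate 3 lay inside the range of the non-transgenic cultures. The difference was 3.57 ± 1.40 (limma adjusted p = 0.428), and it ranked 1 of all genes tested by size. Leaving that culture out gave 5.48 ± 0.30. As every non-transgenic level lay under the filter, these differences and the rank are a description and no fold is given. The value was 2.46 when transgenic replicate 2 was left out, and a fit that held the Gapdh ratio gave -0.06 ± 1.84.

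Tfpi2 (1418547_at), a Kunitz-type inhibitor of plasmin laid down in the matrix, was at 10.99, 10.77 and 10.58 against 13.36, 13.56 and 11.10. The groups did not overlap, although transgenic replicate 3 was close to the highest non-transgenic culture. The difference was 1.89 ± 0.59 (limma adjusted p = 0.428). With that culture left out it was 2.68 ± 0.19, a fold of 6.42 (limma adjusted p = 0.000786). Serping1, the C1 inhibitor, was the 1 lower at an unadjusted p under 0.05, with a difference of -0.34 ± 0.14. The other 7 inhibitors had differences between -0.30 (Serpinb9) and 0.39 (Serpini1), and 1 of them, Serpinb8, had a second probe set above the filter with the opposite sign. Serpinb2 and Tfpi2 thus had the high cultures of Plaur. The summed leukocyte signal was high in these same cultures, in transgenic replicate 1 mainly through Cd53 and Csf1r.

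**Figure D4:**
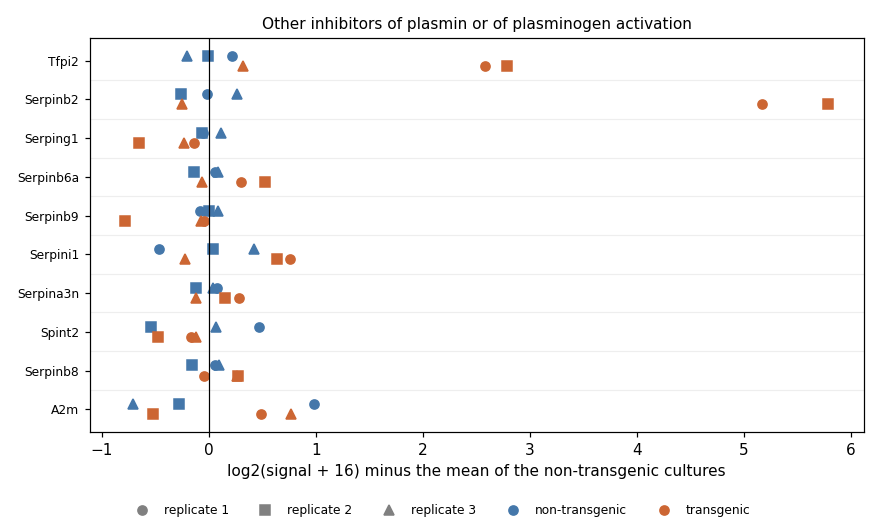
The 10 tested inhibitors by culture, as log2(signal + 16) minus the mean of the 3 non-transgenic cultures (horizontal axis). Transgenic replicates 1 and 2 are displaced to the right for Serpinb2 and Tfpi2, while the cultures of the other 8 genes stay within 1 of the non-transgenic mean.

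The clearance receptors and surface partners of the activators and of Plaur divided evenly, with 6 of 12 tested genes higher and 6 lower and a median of -0.0009. Itga5, the fibronectin receptor subunit, was at 12.42, 11.79 and 11.52 against 12.90, 13.61 and 12.59. All 3 transgenic cultures lay above every non-transgenic one, with a difference of 1.12 ± 0.32 (limma adjusted p = 0.428), and each of 4 probe sets of this gene had a positive difference. The groups did not separate in this way on the other probe sets. On the second (1458996_at) transgenic replicates 1 and 3 lay below every non-transgenic culture, at 7.92 and 7.39. There the positive difference rested on transgenic replicate 2, at 9.92. On 1423268_at transgenic replicate 3, at 7.34, lay inside the non-transgenic range. On 1457561_at, under the filter, it was the lowest of all cultures, at 6.17. Egfr, the epidermal growth factor receptor, was at 14.27, 14.38 and 14.52 against 13.64, 13.08 and 14.19. The difference of -0.75 ± 0.25 had no overlap between groups (limma adjusted p = 0.428), and each of 7 probe sets of this gene had a negative one. The groups did overlap on 1435888_at and 1460420_a_at, where transgenic replicate 3, at 13.01 and 12.68, lay inside the non-transgenic range. The dimmest Egfr probe sets, 1432647_at and 1454313_at, were under the filter. The groups overlapped on 1454313_at as well, where non-transgenic replicate 3, at 7.72, stood above all other cultures. Lrp1, which clears complexes of activator and inhibitor from the surface, showed a difference of -0.01 ± 0.13, with -0.67 on a second probe set.

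Among proteins that plasmin or the activators cleave or activate, 7 of 12 tested lay higher and 5 lower. Tgfb1, released from its latent complex by plasmin among other proteases, was at 8.11, 8.08 and 7.88 against 8.44, 8.63 and 9.10, and was highest in transgenic replicate 3. Its difference was 0.70 ± 0.29 (limma adjusted p = 0.429), with -0.01 on a second probe set under the filter. The matrix protease Mmp3 was at 14.17, 14.005 and 14.28 against 15.09, 14.86 and 14.14, with replicate 3 inside the non-transgenic range and a difference of 0.54 ± 0.23 (limma adjusted p = 0.430). Of the plasma proteases and their cofactors, 1 of 7 was tested, the kininogen gene Kng1, at 13.50, 13.70 and 13.73 against 13.90, 11.71 and 13.63. Its difference of -0.56 ± 0.51 rested on transgenic replicate 2 and was 0.12 without it, and a second probe set gave 0.22. The plasminogen gene Plg was below the filter. Plgrkt, the 1 tested gene among the other plasminogen receptors, differed by 0.09 ± 0.17.

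**Figure D5:**
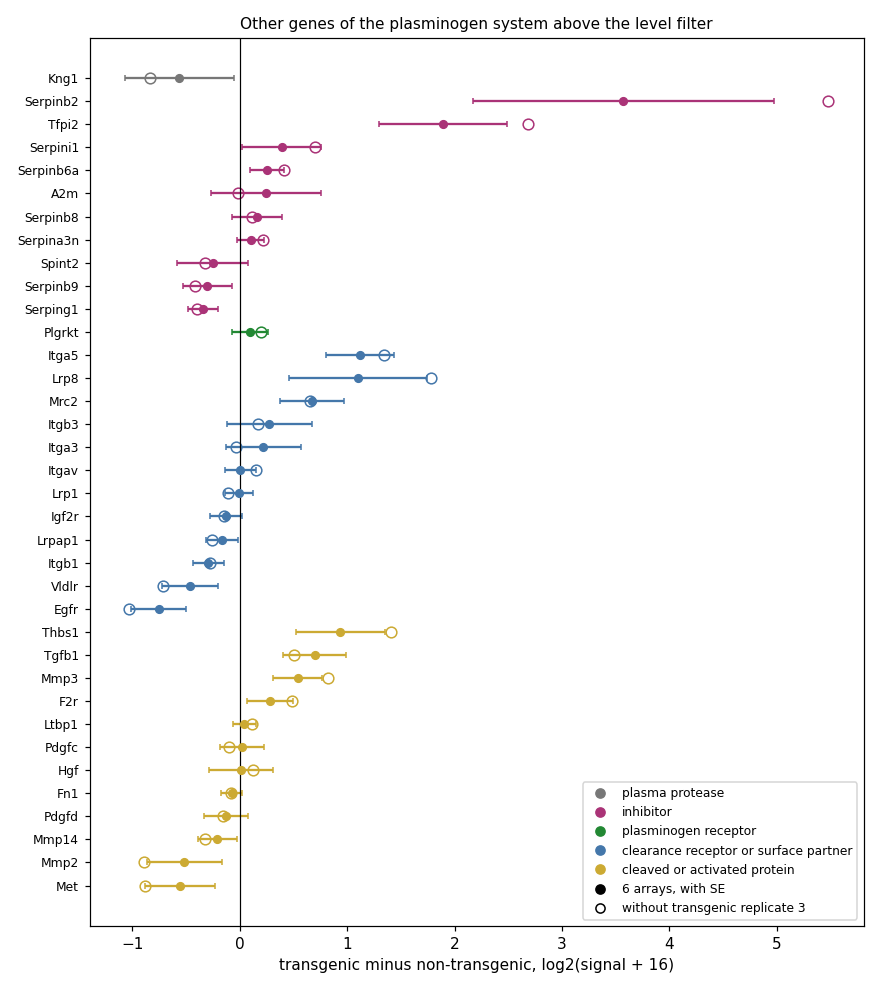
Differences of the 36 tested genes of the plasminogen system that are not among the 5 genes above, transgenic minus non-transgenic in log2(signal + 16) (horizontal axis), grouped by role. Filled points with bars are the 6-array differences with their SE, open points leave out transgenic replicate 3. Serpinb2 at 3.57 and Tfpi2 at 1.89 lie furthest to the right.

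The genes most like each of the 5 were taken as those with the highest Pearson correlation over the 6 arrays, a description that also reflects the array-wide pattern they share. Plaur came with Hs2st1, a heparan sulphate sulphotransferase (r = 0.9959), Tyms, the thymidylate synthase of DNA synthesis (r = 0.9955), and the cell cycle gene Cdca4 (r = 0.9945). Tyms was at 7.41, 7.09 and 7.52 against 8.41, 9.02 and 7.24. For Plaur 276 genes had an r of at least 0.95, against 106 for Anxa2, 58 for S100a10, 16 for Plat and 8 for Plau. Anxa2 came with Reep1 (r = 0.999), the nuclear import receptor Kpnb1 (r = 0.9966) and the desaturase Scd2 (r = 0.9965). S100a10 came with the mitochondrial subunit Ndufa4 (r = 0.998), the proton pump subunit Atp6v1g1 and another annexin, Anxa1. Plat came with Anapc7 (r = 0.998), Bola1 and Wrap73, and Plau with the splicing factor Hnrnpl (r = 0.992), Banp and Rtp3.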

How the data were processed

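The deposited values are linear signal intensities, 1 for each probe set on each array. The submitters' processing notes name MAS5 as the tool, and the labels give about 50 ng of RNA as input. Signals ran from 0.1 to 67821.8, with a trimmed mean of 1492.9 to 1494.0 on each array, and the median over probe sets was 219.9 to 222.9 on the non-transgenic and 173.0 to 186.1 on the transgenic arrays. No genome build is named in the sources used here. Symbols came from the array annotation, updated by gene identifier with RefSeq (GRCm38.p6), which also gave the promoters. Promoters of Plat, Plau and S100a10 were not analysed here.

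From log2(intensity + 16), group differences were fitted with limma 3.58.1 under R 4.3.3 (eBayes with a trend, two-sided) and Benjamini-Hochberg adjustment over all genes at 0.05, after a check on simulated data. SE are limma's. The number of arrays limits the precision. Named genes were the 5 members, per list the 2 with the smallest p, and per member the 3 highest correlations; Lrp1, Lrp8, Plg, Serping1, Serpinb8, Anxa1, Anxa5, S100a8, the markers named singly and the list extremes were picked after their values were seen. Members and lists were chosen with earlier results of these data known.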

Additional observations from a re-analysis of the deposited data

How the results depend on the processing

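Plat, Anxa2 and S100a10 stayed short of the threshold under the other pseudocounts, filters, scalings, variance prior, covariates, and the replicate block, as did Plau and Plaur apart from the 75th percentile filter. The block called 0 genes and left Plaur at 1.73 (limma adjusted p = 0.498). The replicate numbers are not stated to pair the cultures. Deviations of same-numbered cultures from their group means correlated at 0.042, -0.278 and -0.034, which cannot settle pairing with so few cultures. Estimated array weights were 5.25, 0.349 and 0.177 for transgenic replicates 1 to 3. For non-transgenic replicates 1 to 3 they were 0.553, 4.65 and 1.20. The weighted fit thus rested mainly on transgenic replicate 1 and non-transgenic replicate 2. It called 5504 genes. In it Plaur at 2.51, Anxa2 at 0.49, Plau turned to 0.79 and the third S100a10 probe set at -1.21 passed. S100a10 turned to 0.0716 and Kng1 to 0.0719 without passing. Centring arrays on their median shifted every gene by 0.27 and S100a10 to 0.14. The mean of all probe sets turned Plat to -0.0212. The Gapdh ratio as a covariate turned Plaur to -0.23, Anxa2 to -0.0327, Serpinb2 to -0.0576, Kng1 to 0.69 and Plgrkt to -0.115. Leaving out 1 culture called 0 to 1649 genes, all 1649 without transgenic replicate 3, and gave Plaur 1.05 to 2.64, Plau -0.87 to 0.18, Plat 0.10 to 0.24, Anxa2 0.10 to 0.39, S100a10 -0.20 to -0.02, the third S100a10 probe set -1.07 to -0.80 and Kng1 -0.97 to 0.12. The cause of these changes was not tested. Plau, Plaur, Serpinb2 and Tgfb1 lay under the 75th percentile filter and had no value there. Settings for the third probe set alone were added after seeing the data.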

Other observations

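The protein families of Anxa2 and S100a10 were described through their other members. Of 8 other annexins tested, 5 lay higher and 3 lower, with a median difference of 0.05. Anxa3, like Anxa2 a calcium-dependent binder of phospholipids, read 12.98, 13.15 and 13.09 against 14.03, 14.04 and 13.36, with no overlap between groups. Its difference was 0.74 ± 0.20 (limma adjusted p = 0.428) and 0.96 ± 0.12 without transgenic replicate 3 (limma adjusted p = 0.00488). Anxa4 differed by 0.19 ± 0.11, also with no overlap on its brightest probe set, against 16.1% of all genes whose groups did not overlap. On its probe sets 1424176_a_at and 1457658_x_at, transgenic replicate 3, at 11.48 and 10.80, lay inside the non-transgenic range. The abundant Anxa1 and Anxa5 differed by -0.12 ± 0.11 and 0.06 ± 0.11.

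Of 8 other S100 genes tested, 6 lay higher and 2 lower, with a median difference of 0.38 against -0.02 over all genes. S100a4, which also binds annexin A2, was at 14.41, 13.82 and 14.05 against 14.83, 14.87 and 14.23, and S100a16 at 12.93, 12.57 and 12.67 against 13.75, 13.79 and 12.83. Their differences were 0.55 ± 0.21 and 0.73 ± 0.26 (limma adjusted p = 0.428 each), and both S100a16 probe sets lay higher. In each, transgenic replicates 1 and 2 lay above every non-transgenic culture and replicate 3 among them, as for Plaur. Without transgenic replicate 3, limma called 4 of the 8, all higher, against 6.88% of all genes called higher. Among them was S100a8, a calcium-binding protein of neutrophils and monocytes, which was at 8.38 and 9.83 in transgenic replicates 1 and 2 and at most 7.34 elsewhere, and so passed the level filter through those 2 cultures alone and lends its call no support. The summed leukocyte and macrophage signal was highest in those same 2 cultures, at 15086 and 34967 against at most 8303 elsewhere. In transgenic replicate 1 this signal rose mainly through Cd53 and Csf1r, and its part in these differences was not tested.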
